A study of Mus musculus with 2 samples.

Results

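Intronic peaks are the sites of a Rac1 antibody signal that the deposited annotation places inside an intron of a transcript. There were 367 of them among the 3078 peaks of control retina and 280 among the 1711 peaks of retina with chronic ocular hypertension (COH). They were taken as all peaks whose annotation text begins with the word for intron, and the same text gave the transcript, its gene (the host) and the intron's number. CUT&Tag was used, a method by which an antibody on chromatin directs the Tn5 transposase to cut and tag the DNA around it. Both libraries came from nuclei of retinas of wild-type C57BL/6 mice 7 weeks old, with the Rac1 antibody ab33186. The control eyes had no treatment, and the other retinas were taken after 1 week of COH, which models glaucoma through raised eye pressure that injures the axons of retinal ganglion cells. There was 1 library per group, so no difference between the conditions was tested, no p-value is given and no spread between animals is known. The labels give neither the number of retinas in a library nor how COH was induced. Intervals are exact Clopper-Pearson 95% intervals over peaks; they cover counting error only, and the number of reads is unknown, since the lists hold peaks and no totals.

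Rac1 is a small GTPase that cycles between a GDP-bound and a GTP-bound form and drives actin remodelling; part of it is found in nuclei, and it has no DNA-binding domain of its own. Introns are transcribed with the gene and spliced out. The first intron is often the longest and, close to the promoter, commonly carries regulatory sequence, whereas later introns of long neuronal genes can hold enhancers, repeats and other transcription units far from the start site. An intronic position alone does not say which gene a site acts on.

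The results turn in part on how far an intronic peak lies from a transcription start site (TSS), so 3 promoter sequences are shown. Crebrf, a regulator of the CREB3 family, and Nr2c2, an orphan nuclear receptor, carried a peak of both lists just inside their first intron. Il1rapl1, a synaptic adhesion protein, carried one deep in the gene in its intron 6. Each sequence runs from 250 bases before to 50 bases after the start, 5′ to 3′, from RefSeq on GRCm38.p6, with every CG in capitals.

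Crebrf (chr17:26715400-26715699, + strand): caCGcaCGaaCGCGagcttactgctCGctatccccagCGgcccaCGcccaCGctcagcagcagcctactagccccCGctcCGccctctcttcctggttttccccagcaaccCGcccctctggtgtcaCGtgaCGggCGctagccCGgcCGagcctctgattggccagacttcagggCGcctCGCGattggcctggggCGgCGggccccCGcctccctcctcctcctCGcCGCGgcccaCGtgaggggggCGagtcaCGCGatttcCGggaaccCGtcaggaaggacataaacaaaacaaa

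Nr2c2 (chr6:92092183-92092482, + strand): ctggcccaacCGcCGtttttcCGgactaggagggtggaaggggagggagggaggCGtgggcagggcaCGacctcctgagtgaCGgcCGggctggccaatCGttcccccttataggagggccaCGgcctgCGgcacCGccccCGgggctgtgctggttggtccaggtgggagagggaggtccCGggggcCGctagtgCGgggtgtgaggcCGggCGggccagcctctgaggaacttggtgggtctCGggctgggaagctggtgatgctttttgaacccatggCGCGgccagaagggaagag

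Il1rapl1 (chrX:88115899-88116198, - strand): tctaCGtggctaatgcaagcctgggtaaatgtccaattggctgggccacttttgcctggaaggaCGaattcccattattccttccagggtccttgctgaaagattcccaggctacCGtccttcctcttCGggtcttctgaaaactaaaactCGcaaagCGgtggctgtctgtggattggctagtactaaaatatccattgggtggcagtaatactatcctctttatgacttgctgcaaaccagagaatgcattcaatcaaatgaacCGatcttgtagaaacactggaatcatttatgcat

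The Crebrf window held 31 CGs at a GC content of 68%, that of Nr2c2 held 20 at 69%, and that of Il1rapl1 held 7 at 45%. The median over the 27025 genes of the table was 7 CGs. The letters GGGCGG, read on both strands and overlapping the CGs in capitals, occurred 3 times in Crebrf, 2 times in Nr2c2 and 0 times in Il1rapl1, and at least once in 38.2% of all windows. The windows end before the peaks begin, so these sequences describe the promoters and not the sites under the peaks. The letters beneath the peaks were not read here. A promoter sequence was matched for 36 of the 48 control hosts with a first-intron peak near the TSS (75%) and for 241 of all 336 control hosts (71.7%). This coverage is too low for a comparison over the set, which is void and was not made.

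Control peaks lay in the first intron in 148 of 367 cases (40.3%, interval 35.3% to 45.5%) and in the second in 74 (20.2%). The COH list held 109 of 280 in the first intron (38.9%, 33.2% to 44.9%) and 63 in the second (22.5%). Averaging 1 divided by the number of introns of the annotated transcript gave 19.9% in control and 20.6% in COH, the share of first introns if every intron of a transcript held peaks alike. First introns thus held about the same share of both lists and more than that even spread, in which the length of the introns is not considered. The numbers reached intron 59 in control and intron 44 in COH, in transcripts of up to 90 and 78 introns.

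**Figure D1:**
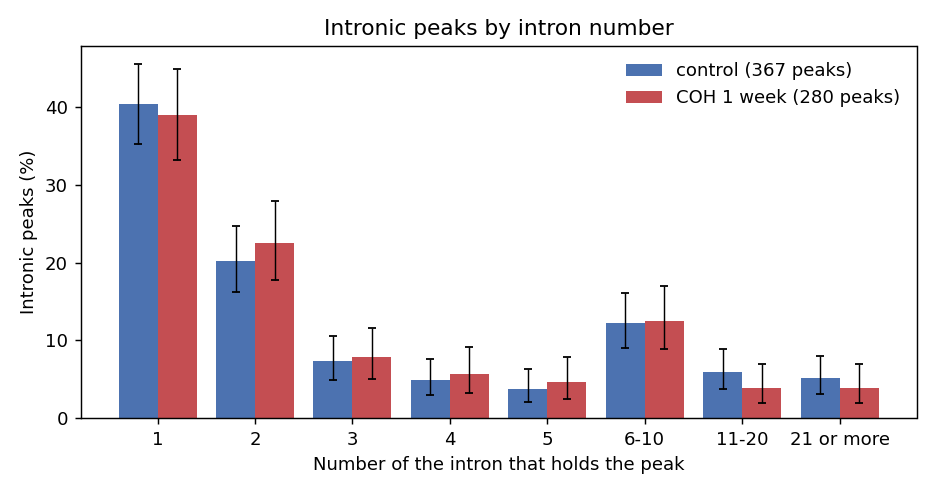
The plot shows the percentage of intronic peaks (y axis) by the number of the intron that holds them (x axis) for control (367 peaks) and COH 1 week (280 peaks); bars are shares and lines their exact 95% intervals. The first intron holds 40.3% and 38.9%, and the intervals of the libraries overlap in every bin.

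The median distance from an intronic peak to the TSS of its assigned gene was 36689 bp for the control list and 35243 bp for the COH list. First-intron peaks lay closer, at a median of 14238.5 and 16980 bp, than later-intron peaks, at 51244 and 46779 bp. Within 3000 bp of a TSS there were 48 control first-intron peaks and 31 in COH, but 5 and 2 in later introns. The peaks near a TSS all lay downstream of it, because the annotation gives peaks that reach the TSS or lie up to 3000 bp before it to the promoter class. At this limit, the St3gal4 peak of control lay just inside at 2593 bp and that of Gm19683 just outside at 3049 bp. In COH, Cox7a2l at 2665 bp was inside and Gm49337 at 3211 bp outside. Where the host was also the assigned gene, the first-intron peaks sat at a median of 6.31% of the gene's length in control (n = 94 peaks) and 14.1% in COH (n = 74). The genes of those peaks and of the later-intron ones were long, with a median of 97.1 kb in control and 86.4 kb in COH, against 33.4 and 31.6 kb for the genes of promoter peaks.

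The COH list was shorter, and the classes did not shrink alike. Intronic peaks numbered 0.763 times as many in COH as in control (interval 0.651 to 0.894). The ratio was 0.736 for first introns and 0.781 for later ones, with overlapping intervals. All peaks together gave 0.556 (0.524 to 0.590), promoter peaks 0.480 (0.438 to 0.526) and distal intergenic peaks 0.803 (0.709 to 0.910). The interval of the intronic ratio lay above that of promoter peaks and overlapped that of distal ones. Each list was called on its own library at an unknown depth, so a difference in depth and a difference in retinal signal cannot be told apart. When the control list was cut to its 1711 strongest peaks, the length of the whole COH list, the ratio became 1.39. It then set 280 COH peaks against 202 control peaks. Distal intergenic peaks numbered 457 in COH and 367 in the cut control list, and promoter peaks 694 and 834, with all peaks equal by construction.

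In median strength, intronic peaks were close to their list as a whole, but their upper quartiles were higher. The upper quartile of fold was 7.21 in control introns against 6.26 over all control peaks. In COH it was 7.59 against 6.70. Fold enrichment over background, as the authors' list gives it for each peak, had a median of 5.26 in control introns and 5.42 in COH introns, against 5.24 and 5.45 over all peaks. The median pileup, the height of overlapping fragments with scaling not stated, was 16 in control introns and 15 in COH introns. First-intron peaks near a TSS had a low median fold, 4.22 in control and 4.73 in COH, but not a low median pileup. In control the pileup was 18, against 17 farther out and 15 in later introns. In COH it was 16, against 16 farther out and 15 in later introns. The 5 control and 2 COH later-intron peaks near a TSS had median folds of 4.07 and 4.32. First-intron peaks farther away had 5.43 and 5.54, and later-intron peaks 5.46 in both lists. The median width was 381 bp in control and 369.5 bp in COH.

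Of the 367 control intronic peaks, 134 (36.5%, 31.6% to 41.7%) overlapped a COH peak of any class by at least 1 bp. The share over all control peaks was 34.3%. In the other direction 149 of 280 COH intronic peaks (53.2%, 47.2% to 59.2%) overlapped a control peak, against 61.8% of all COH peaks. The control list was then cut to its 1711 strongest peaks, the length of the COH list, which stayed whole. The intronic shares became 57.9% in control and 46.4% in COH, against 46.2% and 46.3% over all peaks. In the full lists the control intronic share was near its background, and the COH one lay below it, beside 70.7% (67.2% to 74.1%) for COH promoter peaks and 57.5% (52.9% to 62.1%) for distal ones. Above the median fold of its list, the control intronic share was 59.4% against 47.5% over all peaks, and the COH share 77.8% against 77.5%. All overlapping partners had the same assigned gene. Of the control peaks' partners, 132 were intronic, 1 was a promoter and 1 a 5′ UTR peak. Of the COH peaks' partners, 132 were intronic, 11 lay in a 5′ UTR, 4 in a promoter, 1 in an exon and 1 in a 3′ UTR.

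Strength separated the overlapping intronic peaks from the others. When each list was ranked by fold and divided into 5 bins of equal size, 96 of the 111 control intronic peaks in the strongest bin overlapped a COH peak (86.5%, 78.7% to 92.2%). In that bin 69.5% of all control peaks did so, 58.5% (51.9% to 64.8%) of promoter peaks and 78.5% (72.4% to 83.8%) of distal peaks. Over the 4 weaker bins the order was the opposite: 38 of 256 intronic peaks overlapped (14.8%, 10.7% to 19.8%), against 25.5% of all peaks, 30.8% (28.2% to 33.5%) of promoter peaks and 25.9% (21.4% to 30.8%) of distal peaks. The COH list gave 72 of 76 in its strongest bin (94.7%) and 77 of 204 in the others (37.7%, 31.1% to 44.8%), against 91.3% and 54.5% over all COH peaks. At a fold of 10 or more, 45 of 46 control intronic peaks and 37 of 37 in COH had a partner, as did 140 of 143 and 119 of 120 peaks of all classes, so near-complete overlap at this strength was shared by all classes together. In control, 46 of the 111 intronic, 83 of the 214 distal and 9 of the 236 promoter peaks of the strongest bin reached this fold. The classes were thus not of like strength in that bin.

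**Figure D2:**
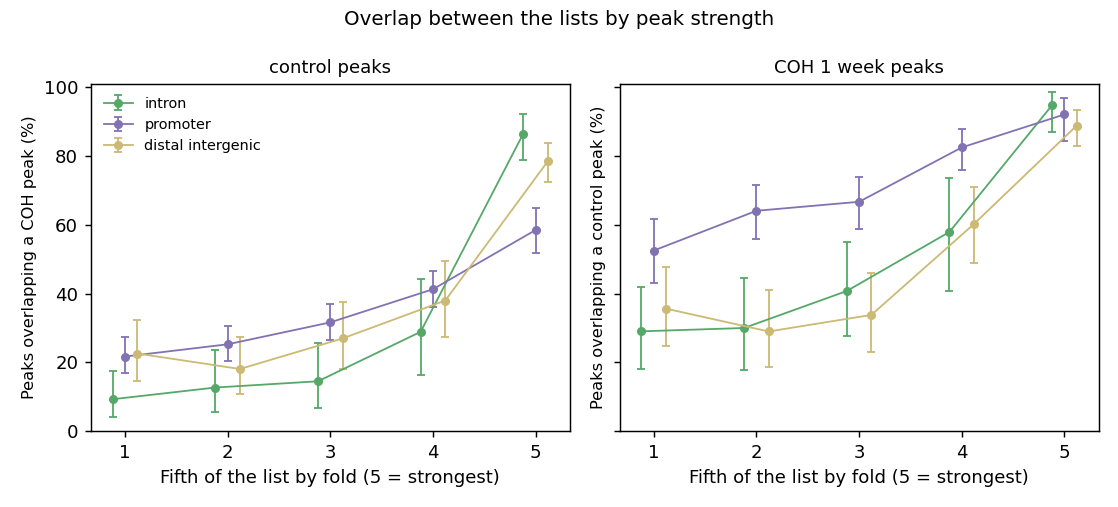
The plots show the percentage of peaks that overlap a peak of the other list (y axis) in 5 bins by fold from weakest to strongest (x axis), for control peaks on the left and COH peaks on the right; points are shares with exact 95% intervals, for introns, promoters and distal intergenic peaks. The control intronic line runs from 9.30% in the weakest bin to 86.5% in the strongest, and the promoter line from 21.7% to 58.5%. Within the strongest control bin the classes are not of like strength.

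In the control list the overlap varied with position in the gene. Among its first-intron peaks near a TSS, 6 of 48 overlapped a COH peak (12.5%, 4.73% to 25.2%). First-intron peaks farther out did so in 38 of 100 cases (38.0%, 28.5% to 48.3%) and later-intron peaks in 90 of 219 (41.1%, 34.5% to 47.9%). Control peaks of the neighbouring class, 5′ UTR, overlapped in 22.2% (18.7% to 25.9%). The near-TSS first-intron peaks also had low folds: 43 of the 48 lay in the 4 weaker bins, where 2 overlapped (4.65%, 0.568% to 15.8%). In the same bins 12 of 71 first-intron peaks farther out overlapped (16.9%, 9.05% to 27.7%). Later-intron peaks there did so in 24 of 142 cases (16.9%, 11.1% to 24.1%). How far strength accounts for the difference was not tested. In the COH list the positions were alike, with 16 of 31 near a TSS (51.6%, 33.1% to 69.8%), 40 of 78 farther out (51.3%, 39.7% to 62.8%) and 93 of 171 in later introns (54.4%, 46.6% to 62.0%). The 16 partners of the COH near-TSS peaks were 7 control 5′ UTR peaks, 5 intronic peaks and 4 promoter peaks, so 11 of these sites carried another class in control.

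**Figure D3:**
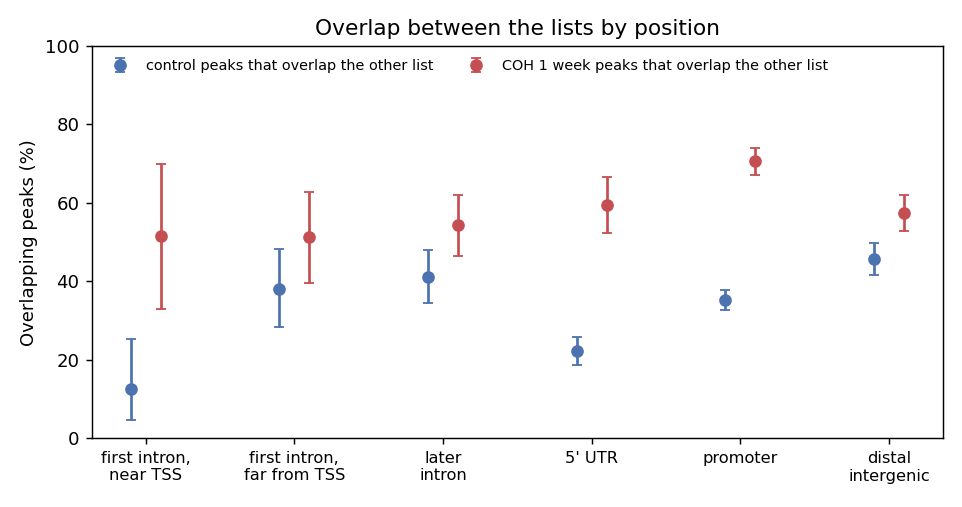
The plot shows the percentage of peaks that overlap the other list (y axis) by annotated position (x axis), with near meaning less than 3000 bp from the TSS; points are shares and lines exact 95% intervals. The control first-intron peaks near a TSS are lowest at 12.5%, beside 34.3% over all control peaks, and the COH peaks of the same position lie at 51.6%, beside 61.8% over all COH peaks.

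Named near-TSS sites are given as pileup and then fold. Each list was called on its own library at an unknown depth, so differences between the libraries at a site, here and below, were not tested. Crebrf had 33 and 7.53 in control at chr17:26934950-26935615, 326 bp past the start, and 19 and 5.40 in COH. Nr2c2 had 38 and 7.82 in control at chr6:92068793-92069310, 422 bp past the start, and 17 and 5.45 in COH. Zbtb2, a zinc finger repressor, gave 33 and 7.30 in control and 18 and 5.05 in COH. At these 3 sites the control value was the higher one. Arid1a, a subunit of the BAF chromatin remodelling complex, went the other way, with 24 and 4.21 in control but 31 and 7.15 in COH, the largest excess of COH over control among the 132 intronic pairs (0.76 on the log2 scale). The Pisd-ps2 pair, on a pseudogene, had 108 and 8.13 in control and 80 and 8.49 in COH. Reads there may be shared with near-identical copies. For Skil, a SMAD corepressor, the control first-intron peak, of pileup 26, overlapped a COH promoter peak of pileup 30.

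The 132 intron-to-intron pairs all shared host gene and intron number; 42 lay in first and 90 in later introns. Fold was higher in COH in 47 of them, the median difference of COH minus control was -0.11 on the log2 scale, and 122 were within 1.5 times of each other. These pairs exist only where both lists called a peak, so sites that changed more are missing from them. The lowest value of COH minus control was -0.95 on the log2 scale, in intron 3 of Nrg3 (fold 11.2 and 5.80), a gene for a ligand of the ERBB4 receptor.

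**Figure D4:**
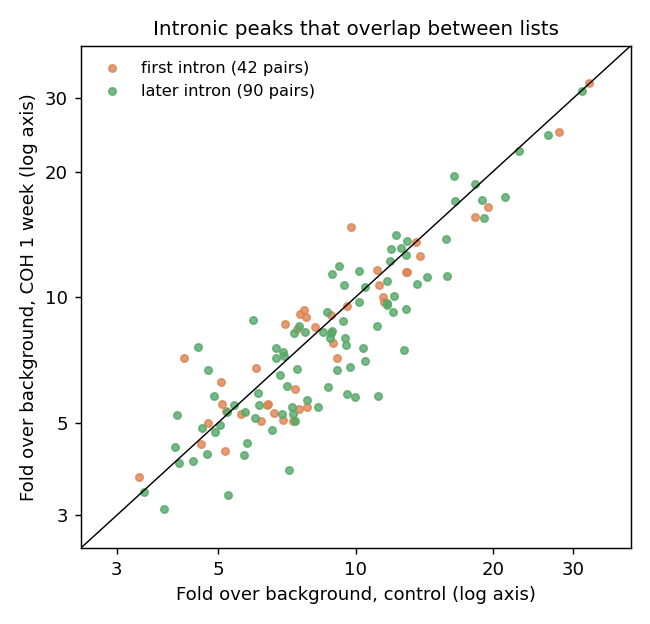
The scatter plot shows the fold over background of 132 intronic peaks in control (x axis) and in the overlapping COH peak (y axis), both on log axes, with first introns (42 pairs) and later introns (90 pairs) in different colours; the line marks equal fold. The points follow the line from about fold 3 to above 30, and 47 lie above it.

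The 5 intronic sites of highest fold were the same in both lists. The highest fold was in the only intron of Gm33838, a long noncoding RNA gene, at chr9:35216511-35216890, where control had a pileup of 3958 at fold 32.5 and COH 4744 at fold 32.6. The start and end were identical in both lists, and the annotation assigned the peak to the pseudogene Gm5614, 23380 bp away. Ppp1r9a, which encodes the actin-binding synaptic scaffold neurabin, was next: its intron 2 of 15 at chr6:4923779-4924198 had a pileup of 780 at fold 31.3 in control, and 727 at fold 31.2 in COH. Intron 1 of Filip1l, at chr16:57211523-57212058, reached 435 and 262, with folds of 28.0 and 24.9. Cdk8, the kinase of the Mediator complex, carried a peak in intron 2 (chr5:146197807-146198178) of pileup 250 and 174 and fold 26.4 and 24.5. In intron 6 of Il1rapl1 (chrX:85865333-85865900), whose promoter is printed above, control had a pileup of 98 at fold 22.8 and COH 95 at fold 22.4. At the sites of Gm33838, Ppp1r9a and Il1rapl1 the folds of the libraries were nearly equal, while those of Filip1l and Cdk8 were lower in COH. The pileups at these sites stood far above the intronic medians of 16 in control and 15 in COH. Whether reads there are shared with near-identical copies was not tested, so a high fold alone does not mark a site as better supported.

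Jarid2, a partner of Polycomb repressive complex 2, followed with a peak in intron 4 of 18 (control 125 at fold 21.2, COH 70 at fold 17.4), which the annotation assigned to Dtnbp1. Cldn34d had a first-intron peak of fold 19.5 and 16.4. The noncoding A830019P07Rik had a peak of 19.1 and 15.5 in intron 2 of 5. Cep128, a centriole protein, had a pair of strong sites, with folds of 18.9 and 17.1 in intron 6 and 16.5 and 17.0 in intron 9. Xpo7, a nuclear transport receptor, had a first-intron peak of 18.2 and 15.5. COH was higher at D5Ertd579e (16.4 and 19.5) and at 2210408I21Rik (18.2 and 18.7). The remaining first-intron peaks among the 5 strongest of either list were those of Tmprss11f (13.8 in control) and of 2700054A10Rik (14.7 in COH).

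Lpp, whose product is a LIM protein of focal adhesions, was the exception among the strong sites. Its control peak in intron 4, at chr16:24402223-24402678, reached a pileup of 86 at fold 18.7, and the nearest COH peak lay 130504 bp away. That COH peak was in intron 7 of the same gene, with pileup 11 at fold 4.22. The next control peaks without a partner were much weaker: Cntnap5b (fold 9.92), Gm20752 (9.77), intron 1 of Nrg3 (8.33) and the ephrin receptor Epha6 (8.26). The strongest COH peaks without a partner were those of Mical3 (pileup 30, fold 8.50), of the actin-oxidising MICAL family, of Crp (21 and 8.23), of the fucosyltransferase Fut9 (22 and 7.81), of Ranbp3l (25 and 7.61) and of Chst9 (16 and 7.08). A site missing from a list was below the caller's threshold there and is not shown to lack signal.

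The host gene and the gene assigned to a peak were often different. They differed for 195 control peaks (53.1%, 47.9% to 58.3%) and 141 COH peaks (50.4%, 44.3% to 56.4%). For hosts that RefSeq types as long noncoding RNA they differed in 48 of 49 control peaks and 34 of 34 COH peaks, and for protein-coding hosts in 124 of 290 and 92 of 222. The assigned gene, where it was another, was a pseudogene in 77 control and 64 COH cases, protein coding in 84 and 50, and not matched to RefSeq in 33 and 26. Among the 50 intronic peaks of highest fold the names differed in 36 in control (72%, 57.5% to 83.8%) and 34 in COH (68%, 53.3% to 80.5%), against 50.2% and 46.5% of the rest. Sites with differing names lay a median of 60202 bp (control) and 62254 bp (COH) from the TSS, and those with the same name 17878.5 and 17551 bp. Peaks assigned to a pseudogene overlapped the other list in 40 of 77 control cases (51.9%, 40.3% to 63.5%) and 41 of 64 COH cases (64.1%, 51.1% to 75.7%), beside 34.3% and 61.8% over all peaks. The COH share was thus near its background. Peaks assigned to another protein-coding gene overlapped in 25 of 84 control cases (29.8%, 20.3% to 40.7%) and 26 of 50 COH cases (52%).

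The farthest of these control peaks was in intron 9 of Grm7, a metabotropic glutamate receptor, 724653 bp from the start of Gm20386. In COH it was in Gm45323, 1139198 bp from Tenm3. The Auts2 peak of control lay at -504679 bp, the negative sign meaning upstream, from the start of Galnt17. Intron 3 of Nrg3 and intron 5 of Galntl6 had overlapping peaks in both lists, assigned to Gm18523 and Galnt7 at 468212 and -442324 bp in control. Some intronic peaks carried the name of a retinal marker through such an assignment. The control peak named for Tyr, a pigment enzyme, lay in intron 17 of Nox4, that named for the microglial receptor P2ry12 lay in Med12l, and the one named for Isl2, a ganglion cell transcription factor, lay in intron 26 of Scaper. The COH peak named for the glial water channel Aqp4 lay in Chst9.

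There were 336 host genes in control and 262 in COH, of which 130 hosted a peak in both, 38.7% of the control hosts and 49.6% of the COH hosts. For 123 of these the peaks overlapped. For the other 7, among them Cdh12, Dmd, Grm7, Lpp, Pid1 and Rab8b, the lists called different sites of the gene. Most genes held 1 peak: 23 control hosts and 13 COH hosts held 2 or more. Snhg14, the long noncoding host transcript of clustered small nucleolar RNA genes, had the most, with 6 in control and 4 in COH, all in its first intron. The highest fold there was 5.91 in control and 6.50 in COH, and 1 and 2 of the peaks overlapped the other list. The noncoding 2700054A10Rik had 4 peaks in each list, all overlapping, with control folds of 7.45 to 11.6 and COH folds of 6.73 to 14.7. Sfi1, a centrosomal protein, had 3 and 3 at folds of 2.83 to 5.79 and 3.10 to 4.47. Pkhd1 had 3 in control (5.39 to 12.3) and 2 in COH (7.54 to 14.1). Where copies of a sequence are near-identical, as in clustered RNA genes, reads can be placed on any of them.

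Gene lists were set against the share of all 21900 RefSeq protein-coding genes that hosted an intronic peak, 1.22% in control and 0.959% in COH. Of 72 GTPase exchange factors, which load GTPases such as Rac1 with GTP, 0 hosted a peak in control and 2 in COH: Dock2 (fold 5.86) and Dock3 (5.14). Of 55 GTPase activating proteins, which switch them off, 2 did in control and 3 in COH. Arhgap21 reached pileup 33 at fold 10.2 in control, and 37 at 11.6 in COH. These peaks overlapped, and COH was slightly higher. Arhgap26 was present in COH alone (4.54). The list drawn up as Rac effectors and actin regulators, 72 genes in all, held 5 hosts in control and 3 in COH. Ppp1r9a, Lpp and Dmd were in both. The formin Fmnl2 (3.92 and 4.59 at separate sites) and Nox4 (6.49) were in control alone. A place on this list does not show that a gene acts with Rac1. Neither Rac1 itself nor Kif2a, the microtubule-depolymerising kinesin named in the study's title, hosted an intronic peak in either list.

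Ion channels and transmitter receptors hosted peaks in 13 of 78 members in each list (16.7%, 9.18% to 26.8%), of which 9 were in both. Gabra3, a GABA-A receptor subunit, reached pileup 42 in both libraries and folds of 13.6 in control and 13.5 in COH in its first intron. Itpr1, the calcium release channel of the endoplasmic reticulum, had 50 and 12.6 in control and 49 and 13.1 in COH. Kcnc2, a fast potassium channel, had 35 and 12.1 in control and 27 and 9.23 in COH. For the first introns of Trpm3, a cation channel, and Kcnq3, a subunit of the M-current channel, the control folds were 12.9 and 9.59, and the COH folds 11.5 and 9.52. Kcnh1, Gabrg3, Grm5 and Grm7 were the others in both. Ano2 (fold 7.08), Chrm2 (6.37) and Kcnd3 (4.45) were among those in control alone. Cacna2d3, Grik1, Grm8 and Itpr2 were in COH alone, at folds of 4.51 to 5.53.

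Synaptic and neuronal adhesion genes hosted peaks in 14 of 86 members in control (16.3%, 9.20% to 25.8%) and 10 in COH (11.6%, 5.72% to 20.3%), with 5 in both. Beside Il1rapl1, these were Dlgap2, a postsynaptic scaffold (pileup 54 and fold 11.9 in control, 59 and 12.2 in COH), Ctnna3, a catenin (9.49 and 7.99), the teneurin Tenm1 (6.43 and 5.56) and Cdh12 (6.80 and 4.21, at different sites). Members in control alone were Cdh4, Cntn3, Cntnap5b, Csmd2, Lrp1b, Ncam1, Pcdh9, Ptprt and Sdk1, and members in COH alone Cntnap5a, Cntnap5c, Csmd1, Dlg2 and Tenm4. Apart from Cntnap5b, these had folds of 4.16 to 5.66. Developmental transcription factors and regulators of long genes, 59 in all, counted 7 hosts in control and 4 in COH. Camta1 (7.15 and 3.85) and Sox5 (6.63 and 5.27) were in both, both lower in COH. That was the common direction, since 47 of the 132 intronic pairs were higher in COH. Auts2, Msi2, Tcf12, Zbtb20 and Zeb2 were in control alone, and Pbx3 and Rbfox1 in COH alone.

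The remaining lists held few hosts. Among 52 axon guidance ligands and receptors there were 2 in control, Epha6 and Unc5d, and 1 in COH, Sema3e. Map1a in control, and Mast4 and Stmn1 in COH, were the hosts among 79 kinesins, dyneins and microtubule proteins. The Stmn1 peak of COH, 146 bp past the start, overlapped a control peak of another class, so the site was in both lists. None of the 47 axon injury and regeneration genes hosted an intronic peak in either list. Of 33 circadian and immediate early genes, Clock hosted one in both lists (8.50 and 8.23) and Nr1d1, the circadian repressor REV-ERB alpha, in COH alone. The Nr1d1 peak lay 1097 bp past the start with pileup 42 at fold 6.41. The genes of the channel and adhesion lists are long, and the developmental list was drawn up as one of long genes. Length is a property shared with intronic hosts in general, and its part in these counts was not tested. The lists were also chosen with earlier results of these data known, so a share above that of all genes is not a test of a list.

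**Figure D5:**
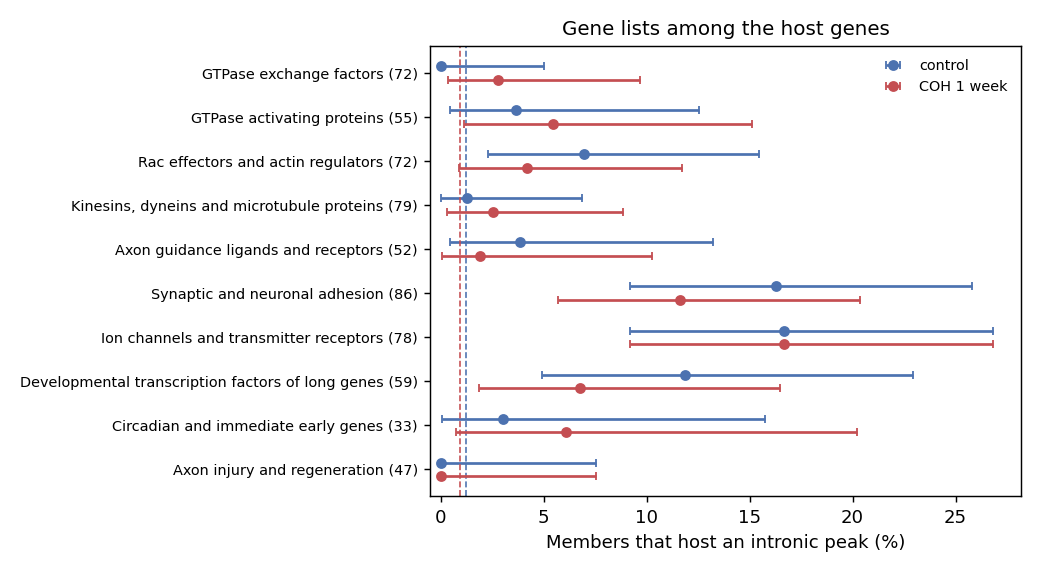
The plot shows the percentage of members that host an intronic peak (x axis) for 10 gene lists, with the number of members in brackets (y axis); points are shares, lines exact 95% intervals, and dashed lines the share of all protein-coding genes in each library (1.22% and 0.959%). Ion channels and adhesion genes lie farthest to the right, at 16.7% in both libraries and at 16.3% and 11.6%. The lists were chosen with earlier results of these data known, and gene length is not considered.

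Markers of retinal cell types gave little against which to check the tissue. The rod gene Rp1 hosted a peak in intron 25 in both lists (pileup 45 and fold 15.9 in control, 33 and 11.2 in COH), although its assigned gene was Gm6101. The amacrine glycine transporter Slc6a9 hosted one in intron 2 in both (4.07 and 5.22), and the bipolar receptor gene Grik1 hosted one in COH (5.53). These were 1 of 10 rod, 1 of 7 amacrine and 1 of 8 bipolar markers. No marker of cones, horizontal cells, ganglion cells, Muller glia, astrocytes, microglia, vessels or pigment epithelium hosted a peak in either list. Those lists hold 4 to 11 genes each, and 1.22% (control) and 0.959% (COH) of all protein-coding genes hosted a peak. Lists this small would seldom hold a host, so the counts show neither presence nor absence of a cell type. A peak in a gene does not measure its expression, and in whole retina a change in the cells present and a change within cells cannot be told apart.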

How the data were processed

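CUT&Tag libraries of retinal nuclei were amplified with 15 PCR cycles, per the labels' protocols. The submitters' processing notes name cutadapt 1.9.1, Bowtie2 and the build mm9, with no role or order; the peak caller, any background library and the treatment of duplicates are each not given in the sources used here. For every peak the authors deposited a signal (the pileup), a fold (a ratio to background), a -log10 p-value and a -log10 q-value; the headings of the last 2 are damaged, and these columns were read from their place and values. Positions, distances to the TSS and annotation are other values per peak, given per the file headers. Lists were taken as called per library. Coordinates of peaks are printed as deposited, and the build is unsettled: gene starts lay within 100 bp of RefSeq GRCm38.p6 for 93 of 3175 genes.

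Intron number and host were parsed from the annotation text with Python 3.11.15, pandas 2.3.3 and scipy 1.17.1, and the parsing and overlap steps were tested on simulated data. Hosts were matched to RefSeq by symbol (313 of 336 in control, 245 of 262 in COH). Overlap means at least 1 bp. Reads were amplified by PCR and carry no molecular identifiers, so they do not count independent molecules.

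The rule for named genes covered the strongest intronic peaks and pairs, the strongest first-intron and unpaired peaks, the strongest and farthest peaks with differing names, hosts of 3 or more peaks, list members, and Rac1 and Kif2a. Peaks near a TSS, those beside the 3000 bp limit, hosts without overlapping peaks and the Tyr, P2ry12, Isl2 and Aqp4 sites were named after their values were seen. The members and gene lists were chosen with earlier results of these data known. Alternatives changed the threshold on -log10 q, the fold, the overlap rule, the peaks left out and the gene name used. Some members of the lists and some hosts are counted but not reported here by name.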

Additional observations from a re-analysis of the deposited data

How the results depend on the processing

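Of 72 alternatives, 51 left their result within its counting interval or, for a count of genes, within 1.5 times. Another 20 moved it beyond, and 1 turned its sign. The cause was not tested. Hosts in both lists numbered 130, 100 where -log10 q reached 5, and 123 where the intronic peaks had to overlap. The share of control intronic peaks that overlap a COH peak was 36.5%; it was 53.4% where -log10 q reached 5, 59.4% for peaks above the median fold, and 57.9% when the lists had equal numbers. The COH share of 53.2% became 75.2%, 77.8% and 46.4% in the same order, and 45.7% with a reciprocal overlap of 50%. The ratio of COH to control intronic peak number was 0.763, and 1.39 with equal numbers, where only the control list was cut. The share in the first intron was 40.3% in control, 34.8% above the median fold and 31.8% without peaks within 3000 bp of a TSS, where COH fell from 38.9% to 31.6%. The share with differing host and assigned gene was 53.1% in control, against 61.5% above the median fold, 61.4% with equal numbers and 61.5% without peaks near a TSS; in COH it was 50.4%, against 57.0% above the median fold and 56.7% without peaks near a TSS. The median fold of first-intron minus later-intron peaks was -0.47 in control (-1.06 to 0.24). The ranges given here set the outer limits of the intervals of the 2 medians against each other. In control it was -1.54 where -log10 q reached 5 (-3.19 to -0.19) and -0.082 without peaks near a TSS (-0.85 to 0.56). In COH it was -0.11 (-0.78 to 0.31), then -0.83 at that limit (-2.20 to 1.67). Without peaks near a TSS the COH value was 0.082 (-0.59 to 1.05), with the sign turned. Each COH range runs from a negative to a positive value, so no direction was settled there. List members counted among hosts numbered 45 in control and 40 in COH, and 26 and 25 by assigned gene. No paired analysis was possible because each group has 1 library. Depth is unknown, so weak peaks called in 1 list alone cannot be told from peaks missed in the other.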
